A study of Saccharomyces cerevisiae BY4741 with 66 samples.

Results

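The 10 genes described here encode enzymes that make purine nucleotides in Saccharomyces cerevisiae: ADE4, ADE5,7, ADE8, ADE6, ADE2, ADE1, ADE13, ADE17, ADE12 and IMD2. They were taken by their gene identifiers from the per-gene tables, 10 of 6605 listed features. Their relative abundance across media, strains and fractions of these same data was in view when they were chosen, so every level and difference given for them is a description and carries no test. The study used selective ribosome profiling, in which ribosome-protected mRNA fragments (footprints) are sequenced from the whole lysate, the total translatome, and from ribosomes purified through a GFP-tagged subunit with a GFP antibody, the immunopurified (IP) translatome. Values per gene were used for 50 of 66 libraries, 25 totals and 25 IPs of 15 tagged strains.

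Fatty acids were added to the medium of both strains with a deletion in fatty acid synthase. FAS1dMPT-GFP carries a GFP-tagged FAS1 that lacks a segment of the MPT domain (2 totals and 2 IPs). FAS1-GFP FAS2dMPT carries full-length tagged FAS1 and lacks the start of FAS2, which the labels also call an MPT segment (2 totals and 2 IPs). TRP2-GFP (2 totals and 2 IPs) and TRP3-GFP (1 of each) grew in SD-trp, a synthetic medium without tryptophan, and CPA1-GFP (1 of each) grew in SD-arg, without arginine. The 17 YPD totals came from FAS1-GFP, FAS2-GFP, GUS1-GFP, MES1-GFP, ARC1-GFP, PFK1-GFP and PFK2-GFP, with 2 totals each, and from SUI2-GFP, SUI3-GFP and GCD11-GFP, with 1 total each. YPD is a rich medium of yeast extract, peptone and glucose. All strains were BY4741 per the labels, grew at 30 °C and carried a GFP tag, so no library came from untagged cells. Medium and strain changed together, and the effect of a deletion, of the fatty acids and of the base medium, which the labels do not give for the deletion strains, cannot be told apart.

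Yeast builds purines on phosphoribosyl pyrophosphate (PRPP). A chain of reactions assembles the ring step by step and ends in inosine monophosphate (IMP), from which separate branches lead to AMP and GMP. The genes of this path are textbook targets of the transcription factors Bas1 and Pho2. Both activate them when cells are short of adenine, and adenine in the medium lowers this activation. IMD2 is known instead for its response to low guanine nucleotides.

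The deposited tables implied 1.74 to 55.9 M reads per total and 0.544 to 31.7 M per IP (M, 1e6 reads). Values are scaled RPM, the deposited RPM rescaled so that most genes match across libraries; they are shares of footprints, in which fewer mRNA molecules and fewer ribosomes per mRNA cannot be told apart. ADE8 was the least covered, at 75.2 implied reads in the GCD11-GFP total and 18.5 in the first PFK2-GFP IP. FAS2, of which only the start is missing in FAS1-GFP FAS2dMPT, had 141 and 351 scaled RPM in the totals of that strain, against 2291 to 4327 in YPD totals. This lower value over the whole gene does not check the deletion, and its cause was not tested. FAS1, of which only a segment is missing in FAS1dMPT-GFP, had 3344 and 3605 scaled RPM there, against 2746 to 4845 in YPD totals, and this value over the whole gene does not check the deletion.

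Some libraries went against their labels. The library labelled FAS1-GFP FAS2dMPT IP 2 was closest to the second FAS1dMPT-GFP total (r = 0.993 over 3885 features), and 94.3% of its reads lay over listed features, the highest share of any IP. FAS1-GFP FAS2dMPT total 2 had 88.5%, and in no other pair was this share higher in the IP than in the total. Every member was higher in this IP than in this total, by log2 differences of 0.15 for ADE8 to 0.67 for ADE12. Whether total and IP of this replicate were exchanged was not tested. The FAS1-GFP total 2, labelled YPD, was closest to the TRP3-GFP total in SD-trp (r = 0.995) and next to the CPA1-GFP total in SD-arg (r = 0.984). BY4741 is a MATa strain without MET17, yet 6 totals had STE3, the alpha-cell receptor gene, at 82.5 to 181 scaled RPM and MET17 at 335 to 1023: FAS1-GFP FAS2dMPT 1, both TRP2-GFP, FAS1-GFP 1 and both FAS2-GFP totals. In these 6 totals STE2, the a-cell receptor gene, was at 0.500 to 2.97 scaled RPM. The part of mating type in the members' values was not tested. Of the FAS1-GFP FAS2dMPT totals only total 1 had this pattern. In its totals 1 and 2 ADE12 had 137 scaled RPM each, ADE8 56.2 and 40.7, and IMD2 37.7 and 27.1. Results without either FAS1-GFP FAS2dMPT total, and without the totals of FAS1-GFP and FAS2-GFP, are given below. None are given without FAS1-GFP FAS2dMPT IP 2 or without both TRP2-GFP totals.

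Members were lower in the fatty-acid totals of both deletion strains than in YPD totals, most of all ADE17. Summed over the 10 genes, scaled RPM was 2330 and 2348 in FAS1dMPT-GFP totals and 1851 and 1897 in FAS1-GFP FAS2dMPT totals, against 3848 to 6686 in YPD totals (median 5387). As a share of all nuclear footprints the 10 genes took 0.258% to 0.265% in FAS1dMPT-GFP totals and 0.181% to 0.230% in FAS1-GFP FAS2dMPT totals, against 0.376% to 0.619% in YPD totals. All 4 fatty-acid totals were below all 17 YPD totals for 8 of the 10 members; over all features 256 of 5037 (5.08%) had that pattern, and 290 (5.76%) had the opposite one. The exceptions were ADE8 and ADE2, each with 1 YPD total below the highest fatty-acid total.

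**Figure D1:**
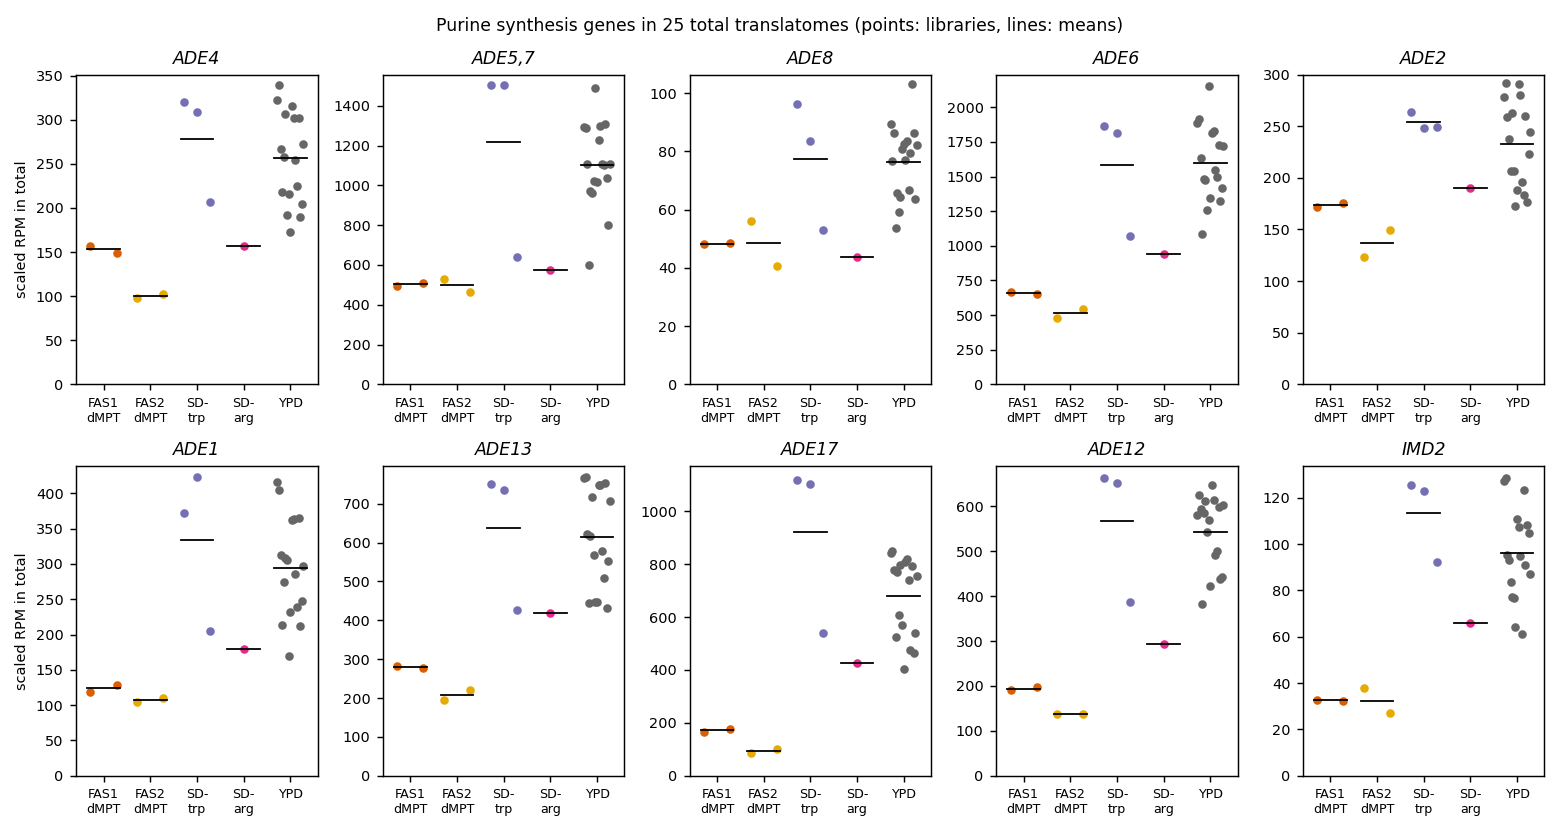
Scaled RPM of each member in the 25 totals, with 1 panel per gene; points are libraries, grouped from left as FAS1dMPT-GFP, FAS1-GFP FAS2dMPT, SD-trp, SD-arg and YPD, and lines are group means. In 8 panels the 4 fatty-acid points lie below all 17 YPD points, and among the 3 SD-trp points the TRP3-GFP library is the lowest in 9 panels.

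The first enzyme of the path is the PRPP amidotransferase encoded by ADE4 (YMR300C; chromosome XIII, 865559 to 867091, minus strand, assembly R64), which commits PRPP to purines. Its scaled RPM was 157 and 149 in FAS1dMPT-GFP totals and 97.8 and 102 in FAS1-GFP FAS2dMPT totals, against 172 to 339 in YPD totals (median 258). No fatty-acid value reached the YPD range. The log2 difference from YPD was -0.71 ± 0.22 in FAS1dMPT-GFP and -1.32 ± 0.22 in FAS1-GFP FAS2dMPT (SE; 2 totals against 17), both from the limma fit of all 25 totals on log2(scaled RPM + 1), as are the differences that follow.

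ADE5,7 (YGL234W; chromosome VII, 56482 to 58890, plus strand) encodes a bifunctional protein that makes glycinamide ribotide and later closes the imidazole ring. Scaled RPM was 495 and 509 in FAS1dMPT-GFP totals and 532 and 465 in FAS1-GFP FAS2dMPT totals, against 598 to 1487 in YPD totals (median 1107). The lowest YPD value came from FAS1-GFP total 2, the library that resembled the SD-trp and SD-arg totals, and the next lowest was 800 in SUI2-GFP. The log2 difference was -1.10 ± 0.26 in FAS1dMPT-GFP and -1.12 ± 0.26 in FAS1-GFP FAS2dMPT.

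ADE8 (YDR408C; chromosome IV, 1288215 to 1288859, minus strand), the shortest member at 645 nt, encodes glycinamide ribotide transformylase, which adds a one-carbon unit from folate. It had 48.1 and 48.5 scaled RPM in FAS1dMPT-GFP totals and 56.2 and 40.7 in FAS1-GFP FAS2dMPT totals, against 53.8 to 103 in YPD totals (median 79.4). One fatty-acid value lay inside the YPD range. Its log2 difference was -0.63 ± 0.20 in FAS1dMPT-GFP and -0.65 ± 0.20 in FAS1-GFP FAS2dMPT.

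ADE6 (YGR061C; chromosome VII, 611889 to 615965, minus strand), the longest member at 4077 nt, encodes the amidotransferase that makes formylglycinamidine ribotide. Scaled RPM was 666 and 655 in FAS1dMPT-GFP totals and 481 and 544 in FAS1-GFP FAS2dMPT totals, against 1083 to 2153 in YPD totals (median 1548). Every fatty-acid value was well below the lowest YPD value. The log2 difference was -1.25 ± 0.20 in FAS1dMPT-GFP and -1.62 ± 0.20 in FAS1-GFP FAS2dMPT.

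ADE2 (YOR128C; chromosome XV, 564476 to 566191, minus strand) encodes the carboxylase whose loss gives red colonies. Of the 10 genes it differed least from YPD in FAS1dMPT-GFP, with 171 and 175 scaled RPM there and 123 and 150 in FAS1-GFP FAS2dMPT totals, against 173 to 292 in YPD totals (median 238). A FAS1dMPT-GFP value thus lay inside the YPD range. The log2 difference was -0.40 ± 0.18 in FAS1dMPT-GFP and -0.75 ± 0.18 in FAS1-GFP FAS2dMPT. ADE1 (YAR015W; chromosome I, 169375 to 170295, plus strand), for the next enzyme, SAICAR synthetase, had 119 and 129 scaled RPM in FAS1dMPT-GFP totals and 104.7 and 110 in FAS1-GFP FAS2dMPT totals, against 170 to 416.5 in YPD totals (median 298). Its groups did not overlap, and its log2 difference was -1.21 ± 0.26 in FAS1dMPT-GFP and -1.41 ± 0.26 in FAS1-GFP FAS2dMPT.

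ADE13 (YLR359W; chromosome XII, 844282 to 845730, plus strand) encodes adenylosuccinate lyase, which acts both on the way to IMP and on the branch to AMP. Scaled RPM was 283 and 278 in FAS1dMPT-GFP totals and 196 and 220 in FAS1-GFP FAS2dMPT totals, against 431 to 769 in YPD totals (median 617). No fatty-acid value reached the YPD range, and the YPD totals had an SD of 127 (n = 17). The log2 difference was -1.10 ± 0.23 in FAS1dMPT-GFP and -1.53 ± 0.23 in FAS1-GFP FAS2dMPT.

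ADE17 (YMR120C; chromosome XIII, 507502 to 509280, minus strand) encodes an AICAR transformylase and IMP cyclohydrolase, the enzyme that completes the ring. It had 167 and 175 scaled RPM in FAS1dMPT-GFP totals and 86.4 and 102 in FAS1-GFP FAS2dMPT totals, against 404 to 849 in YPD totals (median 754.5). Both deletion strains lay far below YPD, and the FAS1-GFP FAS2dMPT pair lay below the FAS1dMPT-GFP pair. The log2 difference was -1.94 ± 0.26 in FAS1dMPT-GFP and -2.81 ± 0.26 in FAS1-GFP FAS2dMPT, the lowest of the 10 genes in both strains. ADE16 (YLR028C), its paralog for the same reaction, had 209 and 221 scaled RPM in FAS1dMPT-GFP totals and 301 and 227 in FAS1-GFP FAS2dMPT totals, and its log2 difference was -0.32 ± 0.11 (adjusted p = 0.0471 in limma) and -0.04 ± 0.11 (adjusted p = 0.842), below the fold threshold in both. The sources used here do not say how reads common to such copies were counted, so values of both paralogs are uncertain.

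On the branches from IMP, ADE12 (YNL220W; chromosome XIV, 234413 to 235714, plus strand) encodes adenylosuccinate synthetase, the first enzyme towards AMP. It had 190.2 and 197 scaled RPM in FAS1dMPT-GFP totals and 137 in each of the FAS1-GFP FAS2dMPT totals, against 382 to 647 in YPD totals (median 580.1). The values within each deletion strain were close to each other and well under the YPD range. The log2 difference was -1.47 ± 0.19 in FAS1dMPT-GFP and -1.96 ± 0.19 in FAS1-GFP FAS2dMPT.

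IMD2 (YHR216W; chromosome VIII, 554396 to 555967, plus strand) encodes an IMP dehydrogenase, the first enzyme towards GMP. Scaled RPM was 32.7 and 32.3 in FAS1dMPT-GFP totals and 37.7 and 27.1 in FAS1-GFP FAS2dMPT totals, against 61.4 to 129 in YPD totals (median 94.7). The groups did not overlap, and the log2 difference was -1.51 ± 0.22 in FAS1dMPT-GFP and -1.53 ± 0.22 in FAS1-GFP FAS2dMPT. Its paralogs IMD3 and IMD4 were lower too: the log2 difference of IMD3 was -0.93 ± 0.11 in FAS1dMPT-GFP, under the fold threshold, and -1.12 ± 0.11 in FAS1-GFP FAS2dMPT (adjusted p = 1.83e-07 in limma), and that of IMD4 was -1.23 ± 0.25 (adjusted p = 0.00169) and -0.98 ± 0.25, under the fold threshold. These copies resemble IMD2 and may share reads with it.

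Calls required limma's Benjamini-Hochberg adjusted p to be under 0.05 and the log2 difference to be 1 or more in size. In FAS1dMPT-GFP totals 317 of 5037 features were called (6.29%), 60 of them lower (1.19%) and 257 higher (5.1%), and 7 of the 10 members were among those called lower: ADE5,7, ADE6, ADE1, ADE13, ADE17, ADE12 and IMD2. In FAS1-GFP FAS2dMPT totals 414 features were called (8.22%), 91 lower (1.81%) and 323 higher (6.41%), and 8 members were called lower, the same 7 and ADE4. Since the members were chosen on these values, nothing is read from the counts. The median log2 difference of the members was -1.15 and -1.47, where the median of all features was -0.004 and 0.02. Both comparisons share the 17 YPD totals, so their values are not independent.

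**Figure D2:**
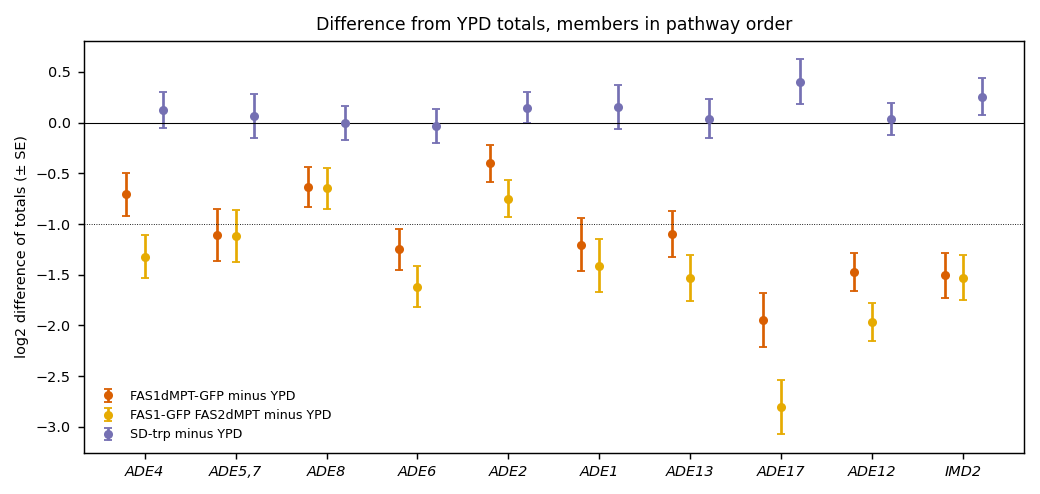
log2 difference of totals from the YPD totals for each member in pathway order, with SE bars, for FAS1dMPT-GFP, FAS1-GFP FAS2dMPT and SD-trp; the dotted line is the fold threshold. ADE17 is lowest in both deletion strains, at -1.94 and -2.81, and the SD-trp points lie between -0.03 and 0.40.

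The FAS1dMPT-GFP count depended on the scaling and on the YPD libraries used. Without further scaling of the deposited values, or with equal totals over nuclear features, 3 members stayed past both thresholds, ADE17, ADE12 and IMD2, and the median of all features moved to 0.42 and 0.30. These scalings multiply all values of a library by a single factor. Values relative to that median therefore stay nearly the same by construction, with ADE17 at -1.92 and -1.93 and ADE6 at -1.23 and -1.24. They do not bear on how stable the calls are. The split of all calls moved to 614 higher and 25 lower without further scaling and to 457 higher and 29 lower with equal totals. In FAS1-GFP FAS2dMPT the share of calls that were higher was 78.0%, and 89.3% and 90.9% under these scalings. With the 2 FAS1-GFP totals as the only YPD libraries, ADE17, ADE12 and IMD2 were again the 3 called in FAS1dMPT-GFP, at -1.89, -1.30 and -1.51. In FAS1-GFP FAS2dMPT 7 of the 8 members were called under either scaling, without ADE5,7, and 6 with the FAS1-GFP totals only, without ADE5,7 and ADE1. Leaving out either FAS1dMPT-GFP total left 4 members called, and these were ADE6, ADE17, ADE12 and IMD2. Leaving out FAS1-GFP FAS2dMPT total 2, the replicate whose IP resembled a FAS1dMPT-GFP total, put ADE17 at -2.92 and ADE5,7 at -1.02. ADE8 was then at -0.42 and IMD2 at -1.3. Leaving out FAS1-GFP FAS2dMPT total 1, with the alpha-cell genes, put ADE17 at -2.69, ADE5,7 at -1.21, ADE8 at -0.88 and IMD2 at -1.76.

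All tables of the deletion strains shared a layout, in which the lower coordinate stands first on both strands, with 6 of the 17 YPD totals. Within that layout 6 members were called in FAS1dMPT-GFP and 8 in FAS1-GFP FAS2dMPT, with ADE17 at -1.73 and -2.59. All features called lower within it were 98 of 5035 (1.95%) in FAS1dMPT-GFP and 129 (2.56%) in FAS1-GFP FAS2dMPT. The sources used here do not say what the layout stands for.

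The other genes of purine metabolism were counted in lists. Of 17 genes for the remaining steps and for one-carbon supply, 1 was called lower in FAS1dMPT-GFP totals, IMD4, and 3 in FAS1-GFP FAS2dMPT totals: IMD3, SHM2, the cytosolic serine hydroxymethyltransferase that feeds one-carbon units into folate (-1.12 ± 0.17, adjusted p = 7.94e-05 in limma), and MTD1, a methylenetetrahydrofolate dehydrogenase (-1.16 ± 0.20, adjusted p = 2.49e-04). Over all features 1.19% and 1.81% were called lower, as given above. None of the 17 was called higher, and the list's median was -0.34 and -0.58. ADE3, the trifunctional folate enzyme that supplies formyl groups to the path, had log2 differences of -0.38 ± 0.20 and -0.39 ± 0.20, and GUA1, the GMP synthetase, had -0.33 ± 0.22 and -0.62 ± 0.22, with none of these 4 values past the thresholds. Among 13 genes of salvage, interconversion and uptake, HPT1, the hypoxanthine-guanine phosphoribosyltransferase, fell in both strains (-1.63 ± 0.26, adjusted p = 1.74e-04, and -2.14 ± 0.26, adjusted p = 3.78e-06). GUD1, the guanine deaminase, rose in FAS1-GFP FAS2dMPT totals (1.20 ± 0.32, adjusted p = 0.00875). The median of that list was -0.11 in FAS1dMPT-GFP and 0.12 in FAS1-GFP FAS2dMPT.

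Histidine synthesis is tied to the purine path through AICAR, a by-product that ADE17 and ADE16 recycle. HIS4, a multifunctional enzyme of histidine synthesis, had 334 and 351.5 scaled RPM in FAS1dMPT-GFP totals and 92.9 and 165 in FAS1-GFP FAS2dMPT totals, against 518 to 1041 in YPD totals. It fell in both strains, with log2 differences of -1.16 ± 0.20 (adjusted p = 5.10e-04 in limma) in FAS1dMPT-GFP and -2.62 ± 0.20 (adjusted p = 3.56e-09) in FAS1-GFP FAS2dMPT. HIS1, for the first enzyme of that path, fell in FAS1-GFP FAS2dMPT (-1.86 ± 0.20, adjusted p = 4.07e-07). The other 4 genes of the histidine list were not called in either strain. Of 7 pyrimidine genes 6 passed the filter, and none was called in either strain. The regulator genes BAS1, PHO2 and GCN4 were not called, with log2 differences of -0.10, -0.03 and 0.21 in FAS1dMPT-GFP and -0.23, 0.23 and 0.51 in FAS1-GFP FAS2dMPT.

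In SD-trp the 3 totals did not form a uniform group. The 10 members summed to 6998 and 7089 scaled RPM in the TRP2-GFP totals and to 3868 in the TRP3-GFP total, against 3848 to 6686 in YPD totals. The lowest of these YPD sums came from FAS1-GFP total 2, the library closest to the TRP3-GFP total. ADE17 had 1121 and 1104 scaled RPM in TRP2-GFP, above the highest YPD value of 849, and 539 in TRP3-GFP, inside the YPD range. For ADE5,7 the TRP2-GFP totals were at 1505 and 1504, also above the highest YPD value of 1487, whereas TRP3-GFP was at 639. ADE2 alone was close in all 3, at 263, 249 and 249.

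As a set, SD-trp totals gave no called feature among 5037 (0.0%) by limma. Without adjustment 403 features had p under 0.05, and a fit with a weight for each library gave 53. No member was called, and none had p under 0.05 without adjustment. Member log2 differences lay between -0.03 for ADE6 and 0.40 ± 0.22 for ADE17, and the members' median was 0.09 against 0.02 for all features. The TRP2-GFP totals also carried the alpha-cell genes named above and the TRP3-GFP total did not, and strain, mating type and replicate cannot be told apart in this difference.

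The CPA1-GFP total in SD-arg, a single library with no replicate check, had the members below the YPD mean without exception. ADE5,7 had 576 scaled RPM, ADE6 943 and ADE12 294, and these 3 as well as ADE4, ADE8 and ADE13, 6 of the 10 members, lay below the lowest YPD total, as did 289 of 4990 features (5.79%). ADE17 had 427 scaled RPM, just above the lowest YPD total of 404. The log2 differences from the YPD mean ran from -0.27 for ADE2 to -0.91 for ADE5,7. No member was past an absolute difference of 1, as 303 of 4990 features were (6.07%), 85 of them lower (1.7%) and 218 higher (4.37%).

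The FAS1-GFP total 2 stood close to the TRP3-GFP and CPA1-GFP totals in its members as well. ADE6 had 1083 scaled RPM there, against 1072 in TRP3-GFP and 943 in CPA1-GFP, and 1632 in FAS1-GFP total 1. ADE5,7 had 598 in FAS1-GFP total 2, against 639, 576 and 1108 in the same 3 libraries, and ADE12 had 382, against 386, 294 and 595. For ADE5,7, ADE8, ADE6 and ADE12 this library was the lowest of the 17 YPD totals. Without the 4 totals of FAS1-GFP and FAS2-GFP, a setting chosen after seeing the data, 7 members were called in FAS1dMPT-GFP and 8 in FAS1-GFP FAS2dMPT, among 79 (1.57%) and 117 (2.32%) of 5040 features called lower.

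**Figure D3:**
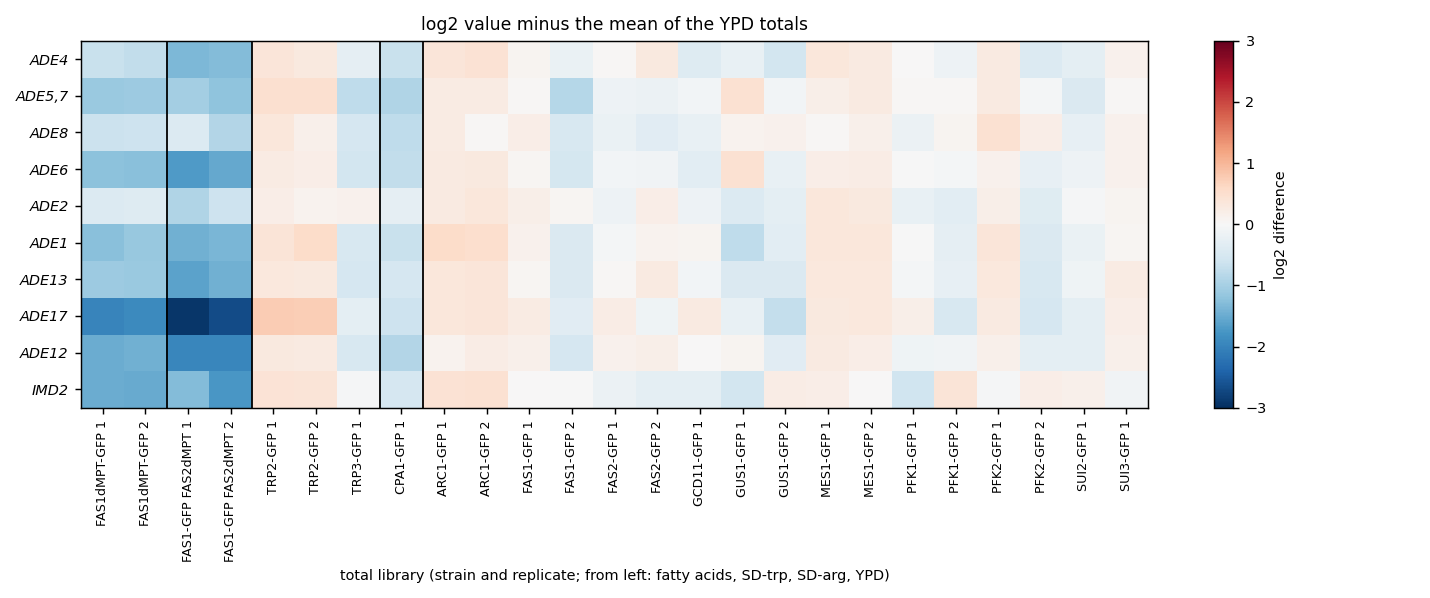
log2 value of each member in each total minus its mean over the 17 YPD totals, as colour from blue (lower) to red (higher); columns run from FAS1dMPT-GFP and FAS1-GFP FAS2dMPT through SD-trp and SD-arg to YPD, divided by lines. The 4 fatty-acid columns are blue in all 10 rows, and the TRP3-GFP, CPA1-GFP and FAS1-GFP 2 columns share a paler blue in most rows.

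Within YPD the members varied together. Across the 17 YPD totals the 45 pairs of members had a median Pearson r of 0.52 on the log2 scale, from -0.13 to 0.929, and across all 25 totals a median of 0.844, from 0.511 to 0.974. The mean r over all pairs of features was 0.003 and 0.002. Scaling that makes most genes match draws this mean towards 0, so it is no yardstick for the members. These values describe libraries that share strains and tables, and over 25 totals much of the spread is that between the deletion strains and the rest. IMD2 was the member least like the others in YPD: its r with the other 9 had a median of 0.137 over YPD totals and 0.818 over all 25. Against the mean of the other members of the path to IMP, ADE13 reached 0.901 and ADE12 0.871 in YPD, ADE8 0.395 and IMD2 0.173.

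Both totals of a strain could differ in the members. In FAS1-GFP all 10 members were lower in total 2 than in total 1, with a median log2 difference of -0.56, and in PFK2-GFP 9 were lower, with a median of -0.50. PFK1-GFP had 7 lower, GUS1-GFP 6 and FAS2-GFP 5, whereas in MES1-GFP and ARC1-GFP the differences stayed between -0.22 and 0.12. ADE17 was lower in total 2 in GUS1-GFP, PFK1-GFP and PFK2-GFP, with log2 differences of -0.77 to -0.50. IMD2 was higher in those 3, with 0.25 to 0.99. ADE17 was also lower in total 2 in FAS1-GFP (-0.57) and FAS2-GFP (-0.34), and level in MES1-GFP (0.02) and ARC1-GFP (0.01). The second totals of GUS1-GFP, PFK1-GFP, PFK2-GFP, MES1-GFP and ARC1-GFP were in the table layout of the deletion strains and the first totals were not. Both totals of FAS1-GFP and of FAS2-GFP were in the other layout. The part of layout in the differences was not tested. In PFK1-GFP, for example, ADE17 had 742 and 477 scaled RPM in totals 1 and 2, and IMD2 had 61.4 and 123.

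Other features were ranked by their correlation with the path to IMP. The highest of 5037 are named, and such a ranking gives high values by itself. Over 25 totals much of the spread is again that between the deletion strains and the rest. Over the 25 totals the highest correlations with the mean of the 8 path members belonged to IRC7, a beta-lyase of sulfur amino acids (r = 0.960), YHB1, the flavohemoglobin that detoxifies nitric oxide (0.957), CDC60, the leucyl-tRNA synthetase (0.951), HPT1 (0.948) and SER2, the phosphoserine phosphatase (0.940). YHB1 averaged 156 scaled RPM in FAS1dMPT-GFP totals and 86.0 in FAS1-GFP FAS2dMPT totals, against 1039 in YPD totals. Over the 17 YPD totals alone the 5 highest were KTI12, a partner of the Elongator complex (0.874), ATF2, an alcohol acetyltransferase (0.861), PRS4, a PRPP synthetase (0.854), NAN1, a protein of ribosome assembly (0.848), and MTD1 (0.840). No feature was in both groups of 5.

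Levels of different members can be compared per kilobase of feature. In YPD totals the mean scaled RPM per kilobase was 457.5 ± 88.0 for ADE5,7, 423 ± 87.7 for ADE13, 418 ± 62.8 for ADE12, 391 ± 67.7 for ADE6, 382 ± 85.5 for ADE17 and 320 ± 77.2 for ADE1 (SD, n = 17). Among these 6 the gap between neighbours in the order was smaller than the larger of their SDs across libraries. Within libraries, ADE17 lay above ADE1 in 16 of 17 totals, while each of the other neighbours lay above the next in 6 to 12 of 17. A step followed to ADE4 at 167 ± 34.4, which lay below ADE1 in 17 of 17 totals. ADE2 had 136 ± 24.3, ADE8 119 ± 19.7 and IMD2 61.2 ± 12.9, and IMD2 lay below ADE8 in 17 of 17 totals.

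In IPs the deletion strains again had the lower values, over fewer members. All 4 IPs of the deletion strains were below all 17 YPD IPs for 5 members, ADE5,7, ADE13, ADE17, ADE12 and IMD2, where 108 of 5179 features (2.09%) had that pattern. ADE17 had 165 and 163 scaled RPM in FAS1dMPT-GFP IPs and 50.1 in FAS1-GFP FAS2dMPT IP 1, against 322 to 732 in YPD IPs (median 479). The library labelled FAS1-GFP FAS2dMPT IP 2 had 155, closer to the FAS1dMPT-GFP libraries than to the other library of its strain. ADE4 showed no such gap, with 192 and 319 scaled RPM in FAS1dMPT-GFP IPs and 151 and 135 in FAS1-GFP FAS2dMPT IPs, against 150.2 to 569 in YPD IPs.

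**Figure D4:**
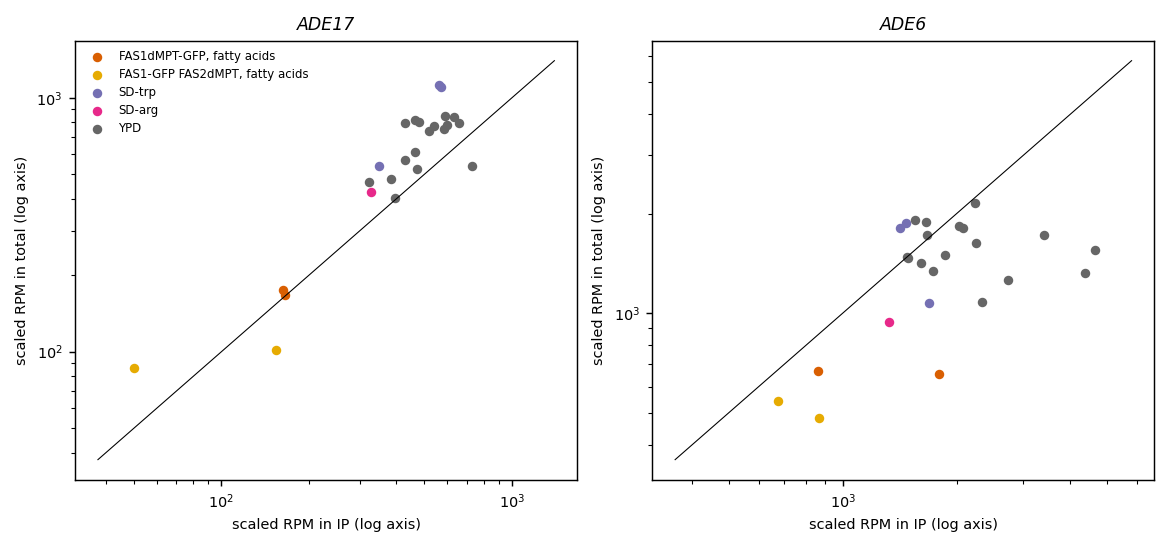
Scaled RPM in the IP (horizontal, log axis) against scaled RPM in the total of the same strain and replicate (vertical, log axis) for ADE17 and ADE6, with 1 point for each of 25 pairs and a line of equality. ADE17 lies above the line, lower in the IP, in 23 of 25 pairs, and ADE6 lies below it, higher in the IP, in 19.

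The mean IP minus total was taken over the 7 replicated YPD strains, whose tagged subunits are no purine enzymes, and none of these libraries came from untagged cells. The strains differed among themselves, with ADE6 at -0.24 in ARC1-GFP and 1.35 in PFK2-GFP. In limma 289 of 5137 features (5.63%) were called, 274 higher in IP (5.33%) and 15 lower (0.292%), and no member was called, although 6 members had an adjusted p below 0.05 with differences under the fold threshold. The split turned to 95 higher and 584 lower without further scaling, when the median of all features was -0.41, and was 458 and 2 with equal totals. Within the 2 table layouts, 19 features were called in tables with the lower coordinate first, all of them higher in IP, and 345 in the others, with no member among them. ADE6 was the member highest in IP, with a log2 difference of 0.46 ± 0.12 (SE), above 0 in 6 of 7 strains and in 19 of 25 pairs. Of these 6 strains FAS2-GFP was level, at 0.005. The 25 pairs include replicate 2 of FAS1-GFP FAS2dMPT, whose IP went against its label. ADE1 was lowest at -0.64 ± 0.11, below 0 in all 7 strains and in 22 of 25 pairs. ADE17 had -0.43 and ADE8 -0.48, and ADE4 was level at 0.01. In PFK2-GFP ADE6 reached 3414 and 4373 scaled RPM in IPs, against 1727 and 1326 in totals.

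The difference was also set against feature length. Its correlation with log2 length was r = 0.799 over the 10 members, with a Spearman rho of 0.576, and r = 0.504 over 5137 features, with a rho of 0.632, a description across genes that share all libraries. The order of the members was not that of their lengths, since ADE5,7, the member next to ADE6 in length, and ADE17 lay below the shorter ADE4. Features under 1000 nt, which include ADE8 and ADE1, had a median of -0.40, those of 1000 to 2000 nt 0.04, those of 2000 to 4000 nt 0.39 and those from 4000 nt, which include ADE6, 0.75. With ADE6 at 0.46 and ADE5,7 at -0.26, both were below the median of their length class, as were all the other members. The part of length in these differences was not tested.

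**Figure D5:**
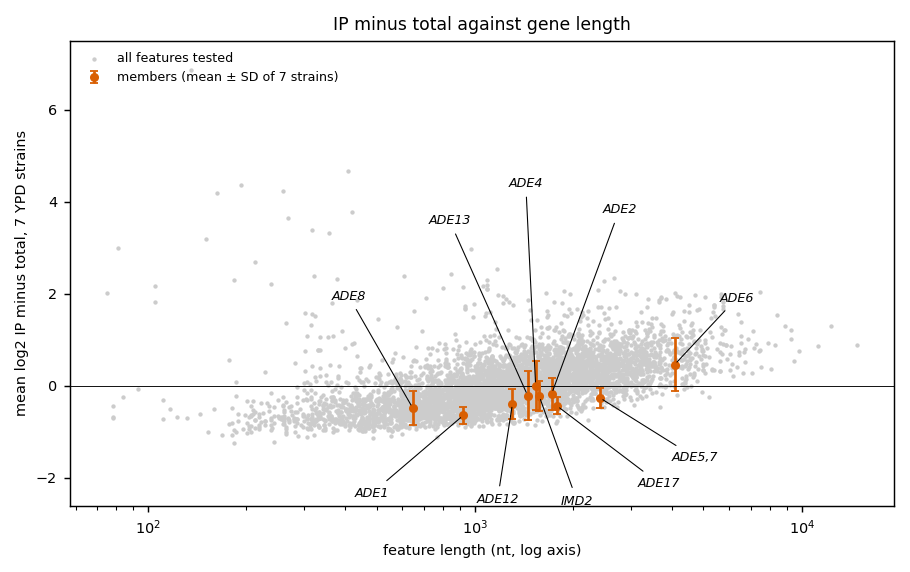
Mean log2 IP minus total over 7 YPD strains (vertical) against feature length (horizontal, log axis) for all 5137 features in grey and the 10 members in orange with the SD of the 7 strains. ADE6, the longest at 4077 nt, is highest at 0.46, and ADE1 at 921 nt is lowest at -0.64.

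The correlation between totals and IPs of the same strain and replicate was described for each member. Over all 25 pairs Pearson's r on the log2 scale ran from 0.394 for ADE2 to 0.922 for ADE17. Over the 17 YPD pairs it was 0.592 for IMD2, 0.57 for ADE17 and 0.565 for ADE1, but -0.189 for ADE6 and -0.357 for ADE12. Both libraries of a pair come from the same strain, and in the plot of ADE17 the 4 pairs of the deletion strains stand apart from the rest.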

How the data were processed

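Totals and IPs were sequenced as ribosome footprints. The submitters' processing notes name cutadapt 1.8.3, an adapter trimmer. Aligner and build: not given in the sources used here, and likewise how reads were counted. The deposited per-gene tables have no header, and their values were taken as RPM, because low values are multiples of a step per library and no column sum exceeds the library total that RPM implies. Between 9.79% and 75.5% of values were whole reads within 0.01 read, so the values were not turned into counts and count models were not fitted. Totals had 73.0% to 96.5% of implied reads over listed features and IPs 37.8% to 94.3%. The 9 deposited position profiles were not used. Coordinates of the members equal those of RefSeq assembly R64, which named 5919 of 6605 features. The 28 mitochondrial features were left out.

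Scaling used all 50 libraries and a trimmed mean of log ratios without weights (trims 0.3 and 0.05). Values were set to log2(scaled RPM + 1), filtered at a mean of 5 RPM and fitted with limma 3.58.1 (R 4.3.3), trend on, no block: 25 totals with a mean per set, and 40 libraries of 10 strains with a mean per strain and fraction. A gene was called at an adjusted p below 0.05 and a log2 difference of at least 1. A fold on this scale understates changes of low genes. Tables and figures used Python 3.11.15. The limma fit was tried on simulated totals with independent noise of equal size in every library. These held no differences between strains, replicates or table layouts, so the trial does not cover such differences. Samples were grouped by the strain, fraction and replicate in their titles and the medium in the growth protocol. The labels do not say that replicates were separate cultures, so p-values measure the spread between libraries, which may be technical.

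The members and gene lists were chosen with earlier results of these data known. Of other lists, called genes were named (at most 3 each way), with IMD3, IMD4 and ADE16 always; ADE3, GUA1, regulators and the values of HIS4 by library were added after their values were seen. Likeness named the 5 features with the highest r. Alternatives were scaling, pseudocount, filter, library weights, replicate and strain blocks, other YPD libraries, table layout and leaving out libraries. No sequences of the members were used here.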

Additional observations from a re-analysis of the deposited data

Results flagged for a closer look

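ADE8 in the IPs of PFK2-GFP stood apart from the other strains. Its mean log2 IP minus total was -1.31 in PFK2-GFP, whereas the other 6 replicated YPD strains lay between -0.47 and -0.24, and the gap was large relative to the range over all 7. In scaled RPM, ADE8 had 41.8 and 33.6 in PFK2-GFP IPs, against 103 and 86.2 in PFK2-GFP totals, so both pairs showed it. ADE8 is the shortest member and the one with the fewest reads, and the first PFK2-GFP IP held 18.5 implied reads for it. The part of read depth in this value was not tested. The same test was made for 10 genes over 7 strains each, and chance picks out about 1 in 20 such groups.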

How the results depend on the processing

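Counts of called features moved under several settings. For FAS1dMPT-GFP against YPD totals, 317 became 639 without further scaling, 486 with equal totals over nuclear features and 40 with FAS1-GFP totals as the only YPD totals, and leaving out 1 library at a time gave 69 to 360 (109 without FAS1dMPT-GFP total 1, 69 without total 2). Members called there went from 7 to 3 under each of these 3 settings and were 4 to 7 when 1 library was left out. For FAS1-GFP FAS2dMPT, 414 became 108 with FAS1-GFP totals only, and leaving out 1 library gave 227 to 451 (227 without its total 1), with 7 to 8 members called. Its 8 called members became 7 under both other scalings and 6 with FAS1-GFP totals only. For SD-trp, 0 became 53 with a weight for each library, 1 with FAS2-GFP totals only and, in settings chosen after seeing the data, 5 within tables that list the lower coordinate first and 1 with TRP2-GFP only; leaving out 1 library gave 0 to 1. For IP minus total, 289 became 679 without further scaling, with 1 member called, 460 with equal totals, 172 with a filter at 20 RPM and 19 within tables that list the lower coordinate first (chosen after seeing the data), and leaving out 1 library gave 212 to 409. The cause of these moves was not tested. The direction of each member's difference was kept wherever it was called. Of 1450 values of members under alternatives, 57 moved by at least the residual SD of the fit. For totals this SD is taken within a set, so it also holds differences between the tagged strains of that set.

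Deviations of totals and IPs with the same number correlated above 0.1 in 9 of 10 strains but not in every strain, from -0.0317 to 0.852, and the labels do not say what a number shares, so the fit carries no block and a total and an IP set side by side share only their strain and number. With the replicate block the counts were 0 for SD-trp, 311 for FAS1dMPT-GFP (7 members), 412 for FAS1-GFP FAS2dMPT (8 members) and 293 for IP minus total (0 members). Depth limits ADE8, the member with the fewest reads, and with 2 totals in each deletion strain the spread is estimated mainly from the YPD totals.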

Other observations

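In PFK2-GFP members differed between IP and total in opposite directions. ADE4 had 569 and 325 scaled RPM in PFK2-GFP IPs, against 301.5 and 190 in PFK2-GFP totals, and ADE13 had 759.5 and 920 in IPs, against 754 and 431 in totals. ADE1 had 174 and 158 in IPs, against 366 and 211.5 in totals. Of the 7 replicated YPD strains this was the highest in IP minus total for ADE4, ADE6, ADE2, ADE13 and IMD2 and the lowest for ADE8. Among the regulators of the path, GCN4 had the only called difference in IP minus total, higher in IP by 2.43 ± 0.40 on the log2 scale (adjusted p = 6.78e-05 in limma).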
